A study of Homo sapiens with 6 samples.

Results

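The genes described here are the YAP and SRF target genes CYR61, CTGF, ANKRD1, AMOTL2, LATS2, TAGLN and CNN1, together with the factors YAP1, WWTR1 and SRF. They were chosen by name, and all 10 were present among the 14930 genes of the deposited matrix, where CYR61 (now CCN1) and CTGF (now CCN2) appear under their older symbols. RNA-Seq was performed in OVCAR8, a cell line from high grade serous ovarian cancer, with 2 replicates in each of 3 groups: a control, a DZNep treatment, and silencing of EZH2 by a doxycycline-induced hairpin (shEZH2). The treatments lasted 72 hours, with DZNep at 5 μM and doxycycline at 1 μg/mL in the study's methods (the labels write 5 mM and 1 mg/mL), and the treatment protocol also names DMSO. EZH2 is the catalytic subunit of the PRC2 complex, which methylates histone H3. DZNep (3-deazaneplanocin A) inhibits S-adenosylhomocysteine hydrolase and thereby methylation reactions in general, EZH2 being among the enzymes it affects. The design asks what the drug and the silencing each do to the transcriptome of the same cell line. The paper treats both as ways to deplete EZH2, as it reports lower EZH2 protein with DZNep. Differences between the 2 treatments are thus not a contrast of inhibition with loss of the protein. The labels give the control group no hairpin and no doxycycline, so loss of EZH2 cannot be told apart from an effect of the hairpin line or of doxycycline. All groups came from 1 cell line, and nothing in the labels states that replicates were separate cultures, so the p-values measure only the spread between these samples, which may be technical.

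YAP1 and WWTR1 (the gene of TAZ) are the coactivators at the end of the Hippo pathway. When the kinases of the pathway are inactive they enter the nucleus, bind TEAD factors and switch on genes such as CYR61, CTGF and ANKRD1, and also AMOTL2 and LATS2, whose products restrain YAP in turn. SRF is a DNA-binding factor that recognizes the CArG box. Its cofactors of the MRTF family (MKL1 and MKL2 in the matrix) are released when actin polymerizes and drive cytoskeletal genes such as TAGLN and CNN1, while its ternary complex factor (TCF) partners drive immediate early genes such as FOS. Both pathways respond to cell shape and tension and share part of their targets.

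The promoter stretches of CTGF, ANKRD1 and SRF are shown because these genes carry repeated matches to the motifs of TEAD factors and of SRF, and because all 3 changed with DZNep. Windows from 250 bases before to 50 bases after the transcription start were available from RefSeq (GRCh38.p14) for 8 of the 10 genes, with 11 windows in all, and none was available for CYR61 and TAGLN. Each stretch is written 5′ to 3′ on the strand of the gene, with the matches in capitals.
CTGF, chr6:131951450-131951553, minus strand, TEAD core GGAATG: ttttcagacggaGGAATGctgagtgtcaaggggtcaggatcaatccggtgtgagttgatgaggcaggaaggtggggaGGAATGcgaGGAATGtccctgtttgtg
ANKRD1, chr10:90921198-90921319, minus strand, TEAD core GGAATG: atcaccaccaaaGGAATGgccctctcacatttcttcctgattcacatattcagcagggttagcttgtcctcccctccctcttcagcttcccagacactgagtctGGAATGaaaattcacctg
SRF, chr6:43171227-43171268, plus strand, CArG box: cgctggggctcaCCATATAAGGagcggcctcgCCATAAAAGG
The TEAD core GGAATG, searched on both strands, was present 169, 104 and 95 bases before the start of CTGF and 220 and 128 bases before the start of ANKRD1. Among 34943 RefSeq promoters of this length, 14.04% held it at least once. The CArG box, also searched on both strands, did not overlap the TEAD core in these windows and began 30 and 10 bases before the start of SRF itself, and 1.296% of all promoters held it. Single matches to the TEAD core lay 162 bases before the start of YAP1, 69 bases before a start of AMOTL2 and 9 bases after a start of LATS2. CNN1 and WWTR1 held neither motif in these windows. A match is a description of the letters and not a binding site measured in these cells.

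Every deposited value is a whole number scaled so that each sample adds up to nearly the same total (999956 to 1000068), so the values are not read counts and the number of reads is unknown. They were scaled by TMM factors (0.919 to 1.12) and compared on the scale of log2(value + 1) with limma in 1 fit of all 6 samples, which covered the 9671 genes that reached 10 in at least 2 samples. All log2 fold changes are on this scale, which understates the change of low genes, and all adjusted p-values are from limma with Benjamini-Hochberg adjustment over all tested genes, two-sided, with a gene called at an adjusted p under 0.05. Levels are not compared between genes, as it is not stated whether the values are per length. The 2 shEZH2 replicates lay closer together than the others, with a standard deviation of the difference between replicates over all tested genes of 0.14 on the log2 scale, against 0.43 for control and 0.45 for DZNep. For the 10 genes and EZH2, shEZH2 results are therefore also given from a refit that takes the mean of its 2 samples as 1 sample. Of the further genes named below, NT5E, AXL, TGFB2, CNN2, ZYX and FOS lost their shEZH2 calls in this refit. The FHL2 difference between the treatments was lost there too. The shEZH2 call of IGFBP3 and the VCL difference between the treatments were kept. The shEZH2 calls of NUAK2, MYL9 and PDGFRB were not followed through any refit. The groups share 1 estimate of the spread, so the close shEZH2 samples also enter the comparison of DZNep with control. With only these 2 groups fitted, the DZNep calls of the 10 genes were kept. Those of EZH2 and, among the further genes named below, NF2, WWC1 and MKL2 were lost. EZH2, the targeted gene, had values of 36 and 42 in control, 26 and 26 with DZNep, and 18 and 18 in shEZH2. Its level fell by 1.12 (SE 0.18, adjusted p = 0.0161) with shEZH2 and by 0.63 (SE 0.18, adjusted p = 0.0255) with DZNep on the log2 scale. The shEZH2 call was lost with the shEZH2 samples averaged (adjusted p = 0.199) or without either shEZH2 replicate, and the DZNep call was lost under 6 of 17 refits, among them those without control replicate 2, DZNep replicate 2 or either shEZH2 replicate (highest adjusted p = 0.0915). Among ovarian serous and epithelial markers, KRT7, KRT8 and KRT18 were high in every sample, while the lineage factor PAX8 stood at 10 to 19, WT1 at 1 to 2, EPCAM at 5 to 12 and CDH1 at 0 to 8, and MUC16 was not analysed here. In such bulk samples, fewer cells of a type and less RNA per cell cannot be told apart.

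With DZNep, 6 of the 10 genes rose (CYR61, CTGF, ANKRD1, AMOTL2, TAGLN and SRF), CNN1 fell, and LATS2, YAP1 and WWTR1 did not pass the test. With shEZH2, AMOTL2, LATS2 and SRF rose, CNN1 fell, and the other 6 did not pass. For comparison, 22.3% of all tested genes were called higher and 20.4% lower with DZNep, and 3.83% higher and 4.53% lower with shEZH2. On the log2 scale the median of the 10 genes was 0.73 with DZNep and 0.65 with shEZH2, beside 0.02 and -0.01 over all tested genes. The values of 9 of the 10 genes (all but YAP1) did not overlap between DZNep and control, and likewise between shEZH2 and control, where 65.6% and 65.1% of all tested genes showed no overlap. WWTR1 and SRF reached the filter on low values through their treated samples, so these counts and medians are a description and carry no weight as a test. Under the thresholds of the study's methods (a log2 fold change beyond 1 in either direction, with p under 0.05 before adjustment), DZNep gave 4 higher and 1 lower of the 10 genes (10.5% and 11.8% of all tested genes), and shEZH2 gave 1 higher and 1 lower (2.22% and 3.07%). With the shEZH2 samples averaged, none of the 10 genes kept or gained a call between shEZH2 and control. Without the scaling factors, the calls for shEZH2 over all genes moved from 370 higher and 438 lower (45.8% higher) to 812 higher and 418 lower (66.0% higher), and 5 of the 10 genes were called higher. The plot of values by sample shows each gene in all 6 samples.

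**Figure D1:**
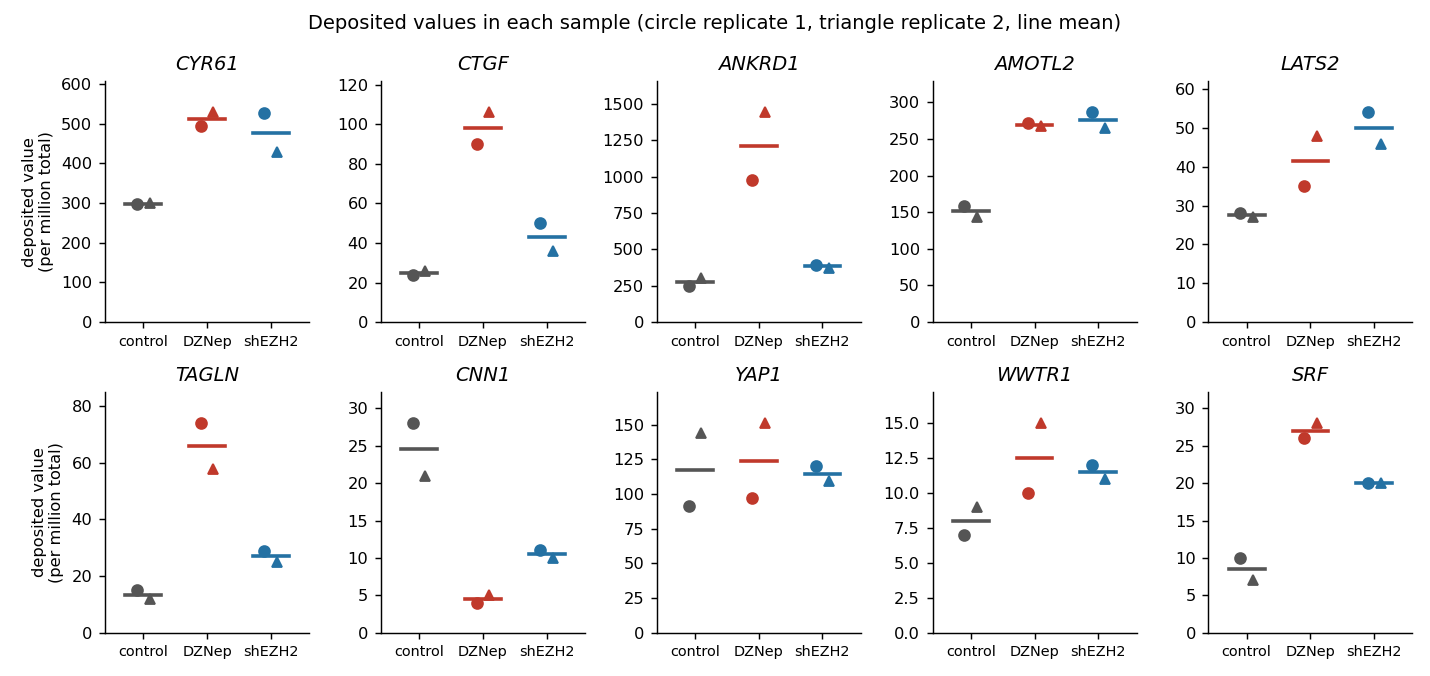
Deposited values (vertical axis, starting at 0, each sample scaled to the same total) of the 10 genes in the control, DZNep and shEZH2 groups, with a circle for replicate 1, a triangle for replicate 2 and a line for the mean. CTGF, ANKRD1 and TAGLN are highest in the DZNep samples, CNN1 is lowest there, and YAP1 overlaps in all 3 groups.

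CYR61, CTGF and ANKRD1 are the best known YAP targets, and all 3 rose with DZNep. CYR61, a secreted matricellular protein, lies at chr1:85580761-85584589 on the plus strand (GRCh38, as for all gene positions). CYR61 was 297 and 299 in control, 493 and 528 with DZNep, and 526 and 429 in shEZH2. All 4 treated samples lay above both control samples, and the treated groups overlapped with each other. The increase with DZNep was 1.63-fold (log2 0.70, SE 0.17, adjusted p = 0.0115). The difference between shEZH2 and control was 0.62 on the log2 scale (SE 0.17, 95% interval 0.24 to 1.00, adjusted p = 0.0574) and did not pass. This value passed under 5 of 17 refits, among them those without either DZNep replicate, over which the adjusted p ranged from 0.00411 to 0.489.

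CTGF, another matricellular protein of the same family, lies at chr6:131948176-131951372 on the minus strand. CTGF was 24 and 26 in control, 90 and 106 with DZNep, and 50 and 36 in shEZH2. The 3 groups did not overlap, in the order control, shEZH2 and DZNep. With DZNep the gene rose 3.62-fold (log2 1.86, SE 0.19, adjusted p = 0.000368). Against control, shEZH2 differed by 0.69 on the log2 scale (95% interval 0.25 to 1.13, adjusted p = 0.0615), which did not pass but did so without DZNep replicate 2, and the 2 neighbours in this order were thus not separated by the test.

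ANKRD1, a nuclear and sarcomeric ankyrin repeat protein that is widely used as a readout of YAP, lies at chr10:90912096-90921087 on the minus strand. ANKRD1 was 248 and 305 in control, 976 and 1442 with DZNep, and 391 and 375 in shEZH2. The DZNep samples were far above the others, and the shEZH2 samples lay between the groups without overlap. The increase with DZNep was 4.09-fold (log2 2.03, SE 0.17, adjusted p = 0.000148). The difference between shEZH2 and control was 0.42 (95% interval 0.04 to 0.81, adjusted p = 0.148) and passed under none of 17 refits.

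AMOTL2 and LATS2 are targets that act back on the pathway, and these were the YAP targets among the 10 genes that passed the test with shEZH2. AMOTL2, an angiomotin family scaffold that holds YAP at cell junctions, lies at chr3:134355347-134375479 on the minus strand. AMOTL2 was 158 and 144 in control, 272 and 267 with DZNep, and 286 and 265 in shEZH2. Both treatments gave values well above control and overlapping with each other. The increase was 1.70-fold with DZNep (log2 0.76, SE 0.18, adjusted p = 0.0108) and 1.76-fold with shEZH2 (log2 0.81, SE 0.18, adjusted p = 0.0334). The DZNep call was lost without control replicate 2 (adjusted p = 0.0512), and the shEZH2 call was lost under 4 of 17 refits, those without control replicate 2, without either shEZH2 replicate and with the shEZH2 samples averaged (highest adjusted p = 0.303).

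LATS2, the kinase that phosphorylates YAP and TAZ, lies at chr13:20973036-21061586 on the minus strand. LATS2 was 28 and 27 in control, 35 and 48 with DZNep, and 54 and 46 in shEZH2. The control samples were the lowest, and the treated groups overlapped in these deposited values but not after scaling by the TMM factors. The increase with shEZH2 was 1.72-fold (log2 0.78, SE 0.18, adjusted p = 0.0417). This call was lost under 5 of 17 refits, those without the filter, without control replicate 2, without either shEZH2 replicate and with the shEZH2 samples averaged (adjusted p = 0.347 with the shEZH2 samples averaged). With DZNep the difference was 0.49 (95% interval 0.06 to 0.91, adjusted p = 0.0637) and did not pass. It passed in both limma fits with the replicate number as a block (adjusted p = 0.000408 with only these 2 groups).

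The SRF targets TAGLN and CNN1, both actin-binding proteins of contractile cells, moved in opposite directions. TAGLN, which encodes transgelin, lies at chr11:117199370-117207464 on the plus strand. TAGLN was 15 and 12 in control, 74 and 58 with DZNep, and 29 and 25 in shEZH2. The groups did not overlap, with control lowest and DZNep highest. TAGLN rose 4.40-fold with DZNep (log2 2.14, SE 0.26, adjusted p = 0.000634), with a 95% interval (1.55 to 2.73) that overlaps those of ANKRD1 and CTGF. With shEZH2 the difference was 0.90 (95% interval 0.31 to 1.49, adjusted p = 0.0642). It did not pass here, but passed under 7 of 17 refits, among them those without control replicate 1 or either DZNep replicate, over which the adjusted p ranged from 0.000455 to 0.379.

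CNN1, which encodes calponin of smooth muscle, lies at chr19:11538767-11550323 on the plus strand. CNN1 was 28 and 21 in control, 4 and 5 with DZNep, and 11 and 10 in shEZH2. Control was the highest group and DZNep the lowest, with no overlap. CNN1 was 4.83-fold lower with DZNep (log2 -2.27, SE 0.23, adjusted p = 0.000343) and 2.28-fold lower with shEZH2 (log2 -1.19, SE 0.23, adjusted p = 0.0246). The shEZH2 call was lost with the shEZH2 samples averaged (adjusted p = 0.223) and without either of them. The deposited whole numbers are coarse at this level, and rounding alone allows a log2 ratio between DZNep and control of -2.64 to -2.26.

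The levels of the coactivators themselves showed no call in the fit of all 6 samples. YAP1 lies at chr11:102110447-102233424 on the plus strand. YAP1 was 91 and 144 in control, 97 and 151 with DZNep, and 120 and 109 in shEZH2. The groups overlapped throughout, and replicate 2 exceeded replicate 1 by 0.50 in control and 0.38 with DZNep on the log2 scale. The log2 fold change was 0.01 with DZNep (95% interval -0.49 to 0.51, adjusted p = 0.979) and -0.05 with shEZH2 (95% interval -0.56 to 0.45, adjusted p = 0.892). Changes within these intervals are not excluded. WWTR1 lies at chr3:149517235-149736714 on the minus strand. WWTR1 was 7 and 9 in control, 10 and 15 with DZNep, and 12 and 11 in shEZH2. The control samples were the lowest, but the values are small. The log2 fold change was 0.50 with DZNep (95% interval 0.03 to 0.98, adjusted p = 0.0815) and 0.44 with shEZH2 (95% interval -0.04 to 0.91, adjusted p = 0.207).

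SRF, unlike the coactivators, was called in both comparisons with control. It lies at chr6:43171269-43181506 on the plus strand, just downstream of the CArG boxes shown above. SRF was 10 and 7 in control, 26 and 28 with DZNep, and 20 and 20 in shEZH2. The groups did not overlap, with control lowest and DZNep highest. SRF rose 2.85-fold with DZNep (log2 1.51, SE 0.24, adjusted p = 0.00197) and 2.16-fold with shEZH2 (log2 1.11, SE 0.24, adjusted p = 0.0304). As for AMOTL2, the shEZH2 call was lost without control replicate 2, without either shEZH2 replicate and with the shEZH2 samples averaged (adjusted p = 0.246).

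The comparisons of DZNep and shEZH2 with control share the control samples, so the treatments were also compared directly. Between shEZH2 and DZNep, CTGF, ANKRD1 and TAGLN were lower, CNN1 was higher, and 6 of the 10 genes did not pass, where 4.56% of all tested genes were called lower and 4.87% higher. The same 3 lower and 1 higher met the thresholds of the study's methods (2.11% and 3.41% of all tested genes). The log2 difference was -1.61 for ANKRD1 (SE 0.17, adjusted p = 0.00336), -1.16 for CTGF (SE 0.19, adjusted p = 0.0138), -1.23 for TAGLN (SE 0.26, adjusted p = 0.0272) and 1.08 for CNN1 (SE 0.23, adjusted p = 0.0295). For these 4 genes the difference from control was smaller with shEZH2 than with DZNep. With the shEZH2 samples averaged, ANKRD1 passed (adjusted p = 0.0348), while CTGF (adjusted p = 0.141), TAGLN (adjusted p = 0.205) and CNN1 (adjusted p = 0.233) did not. The calls of CTGF, TAGLN and CNN1 were also lost without either shEZH2 replicate, and those of TAGLN and CNN1 without DZNep replicate 1 (highest adjusted p = 0.205, 0.208 and 0.239). For CYR61 and AMOTL2 the difference was -0.08 (95% interval -0.47 to 0.30) and 0.05 (95% interval -0.36 to 0.46). For LATS2 it was 0.29 (95% interval -0.13 to 0.72) and for SRF -0.40 (95% interval -0.94 to 0.15). The plot of changes shows all 3 comparisons.

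**Figure D2:**
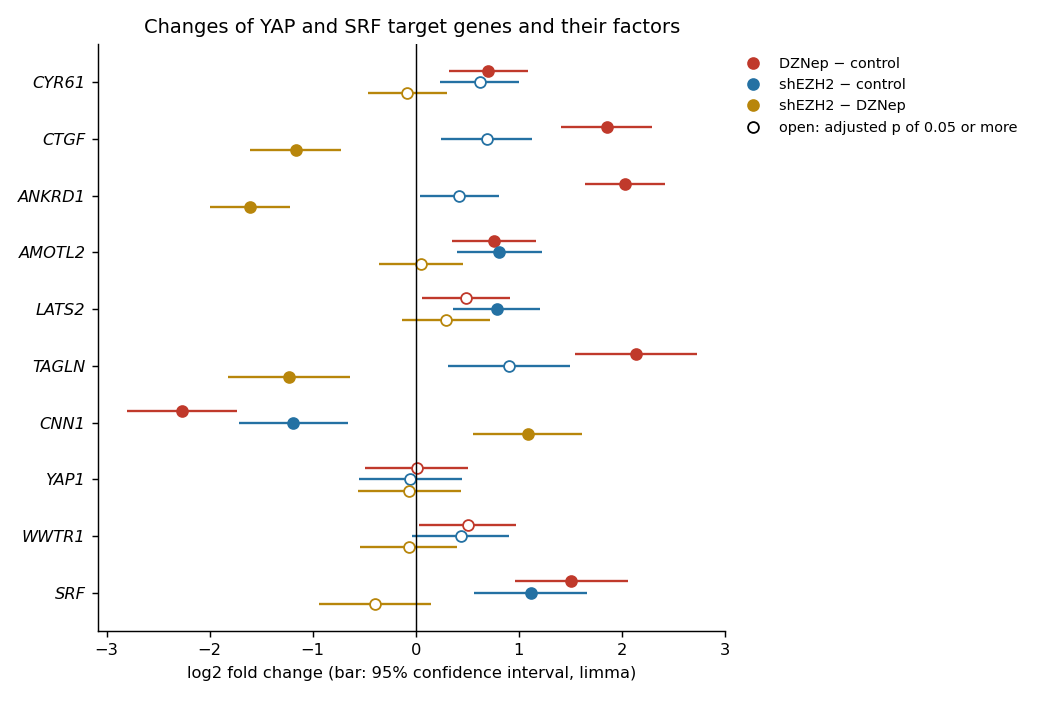
Log2 fold change (horizontal axis) of the 10 genes between DZNep and control, shEZH2 and control, and shEZH2 and DZNep, with the 95% confidence interval from limma as a bar. Filled points passed an adjusted p of 0.05: 6 genes are higher and 1 lower with DZNep, 3 higher and 1 lower with shEZH2.

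The wider YAP/TAZ target signature held 22 genes, of which 20 were tested (FOXF2 and RBMS3 were too low). With DZNep, 10 rose, 3 fell and 7 did not pass, with a median of 0.52 on the log2 scale. With shEZH2, 5 rose, 3 fell and 12 did not pass, with a median of 0.42. The shares over all tested genes were 22.3% higher and 20.4% lower with DZNep, and 3.83% higher and 4.53% lower with shEZH2. Over the alternatives the number of increases ranged from 7 to 12 with DZNep and from 0 to 9 with shEZH2. Of the 15 tested genes outside the 10 described above, 6 rose and 3 fell with DZNep (median 0.16), and 3 rose and 3 fell with shEZH2 (median 0.13). NUAK2 was 8 and 6 in control, 21 and 13 with DZNep, and 21 and 17 in shEZH2. It was called higher in both (log2 1.08, adjusted p = 0.0280 with DZNep, and log2 1.28, adjusted p = 0.0491 with shEZH2). The shEZH2 value is near the threshold, and this gene was not followed through the refits. NUAK2 and TGFB2 entered the test through treated samples, so these counts and medians are a description. TGFB2, a ligand of the TGF-β pathway, was 1 and 2 in control, 12 and 18 with DZNep, and 4 and 4 in shEZH2. The TGFB2 increase was 2.63 with DZNep (adjusted p = 0.000214) and 1.00 with shEZH2 (adjusted p = 0.0432) on the log2 scale, and this gene entered the test through its DZNep samples. GADD45A, a stress response gene of cell cycle arrest, was 95 and 118 in control, 245 and 293 with DZNep, and 170 and 145 in shEZH2, and rose with DZNep (log2 1.26, adjusted p = 0.000774).

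NT5E and AXL had the largest decreases of the signature with DZNep. NT5E (CD73), the ectoenzyme that produces adenosine, was 847 and 1135 in control, 86 and 122 with DZNep, and 417 and 386 in shEZH2. The NT5E level was 9.97-fold lower with DZNep (log2 -3.32, SE 0.17, adjusted p = 3.44e-05) and 2.53-fold lower with shEZH2 (log2 -1.34, SE 0.17, adjusted p = 0.00868). AXL, a receptor tyrosine kinase, was 371 and 338 in control, 57 and 55 with DZNep, and 226 and 219 in shEZH2. The AXL level was 6.55-fold lower with DZNep (log2 -2.71, adjusted p = 7.12e-05) and 1.65-fold lower with shEZH2 (log2 -0.72, adjusted p = 0.0490). For both genes all 3 groups were separate, with shEZH2 between the others. IGFBP3, a secreted binding protein of insulin-like growth factors, showed another order, with 100 and 101 in control, 79 and 91 with DZNep, and 32 and 27 in shEZH2. IGFBP3 fell with shEZH2 (log2 -1.79, adjusted p = 0.00319) and did not pass with DZNep (log2 -0.31, adjusted p = 0.164), and the 2 treatments differed (log2 -1.48, adjusted p = 0.00411, but 0.0622 without shEZH2 replicate 2). The shEZH2 call of IGFBP3 was kept in all 17 refits (highest adjusted p = 0.0356), whereas those of NT5E (0.101), AXL (0.395) and TGFB2 (0.290) were lost without either shEZH2 replicate, the value given being the highest adjusted p. The AXL call was lost under 8 of 17 refits in all. These include the fits without either control replicate, without the filter, with a pseudocount of 0.5 and without the intensity trend. The TGFB2 call was lost under 7 of the 14 refits that tested it. Among them were those without control replicate 1, without scaling factors, without the filter and with a pseudocount of 5. The DZNep calls of NT5E, AXL and GADD45A were kept in all 17 refits, and that of TGFB2 in the 14 refits that tested it, since it missed the filter without either DZNep replicate.

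The actin and contractile targets of MRTF and SRF moved mostly upward with DZNep. Of 20 listed genes, 17 were tested (ACTA2 and LMOD1 were too low, and ACTG2 was not analysed here). With DZNep, 12 rose, 2 fell (CNN1 and TPM4) and 3 did not pass, with a median of 0.98. The 12 include ACTC1 and TGFB1I1 (6 and 5 in control, 11 and 10 with DZNep), which entered the test through their treated samples. With shEZH2, 3 rose (CNN2, MYL9 and ZYX), CNN1 fell and 13 did not pass, with a median of 0.40. Over all tested genes, 22.3% were called higher and 20.4% lower with DZNep, and 3.83% higher and 4.53% lower with shEZH2. The counts and medians of this list are a description. The 3 increases with shEZH2 are uncertain, as the number of increases ranged from 0 to 8 over the alternatives. The calls of MYL9 and TPM4 are outside the naming rule and are given because the counts are small.

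CNN2, the calponin of non-muscle cells, was 13 and 11 in control, 56 and 48 with DZNep, and 30 and 29 in shEZH2. CNN2 rose 3.89-fold with DZNep (log2 1.96, SE 0.23, adjusted p = 0.00056) and 2.27-fold with shEZH2 (log2 1.18, SE 0.23, adjusted p = 0.0236), opposite in direction to CNN1. ZYX, a focal adhesion protein, was 17 and 14 in control, 34 and 32 with DZNep, and 38 and 33 in shEZH2. The ZYX increase was of like size in both treatments (log2 0.98, adjusted p = 0.00924, and log2 1.10, adjusted p = 0.0264), with a difference of 0.12 between them (95% interval -0.39 to 0.63). The shEZH2 calls of CNN2 and ZYX were lost without control replicate 2 or either shEZH2 replicate (highest adjusted p = 0.206 and 0.254). VCL, which encodes vinculin of focal adhesions, was 154 and 151 in control, 339 and 365 with DZNep, and 114 and 118 in shEZH2. VCL rose with DZNep (log2 1.13, adjusted p = 0.00124), whereas the change with shEZH2 was -0.44 (95% interval -0.81 to -0.08, adjusted p = 0.116). The VCL difference between the treatments passed (log2 -1.57, SE 0.16, adjusted p = 0.00318).

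ACTB, the cytoplasmic actin often used as a reference gene, was 1422 and 1076 in control, 3786 and 3481 with DZNep, and 2446 and 2285 in shEZH2. ACTB rose 2.79-fold with DZNep (log2 1.48, SE 0.23, adjusted p = 0.00188), and the difference with shEZH2 was 0.88 (95% interval 0.35 to 1.41, adjusted p = 0.0547). ACTC1, the cardiac actin, was 2 and 2 in control, 13 and 18 with DZNep, and 4 and 4 in shEZH2. ACTC1 rose with DZNep (log2 2.39, adjusted p = 0.000148) and entered the test through its DZNep samples. Actin genes have near-identical coding sequences, so the values of ACTB and ACTC1 depend on how RSEM shared reads between them. The heat map gives the signature and the actin targets in every sample.

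**Figure D3:**
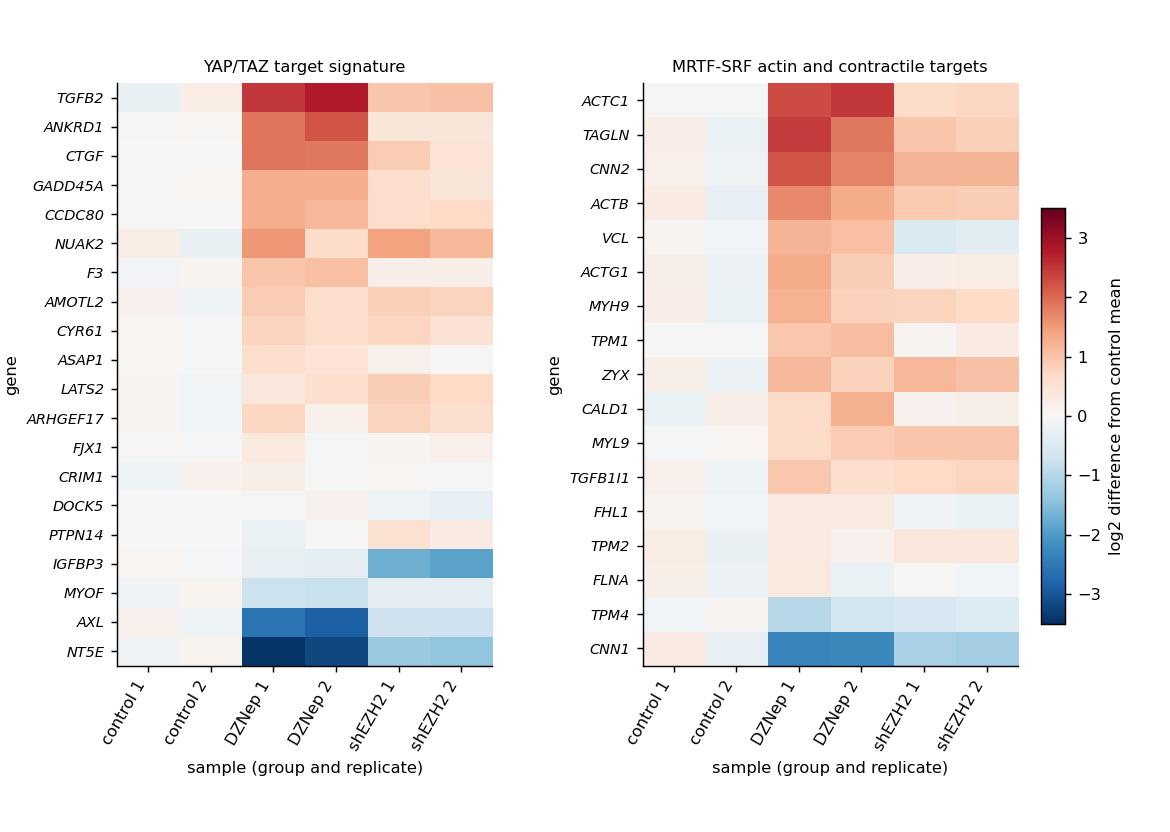
Log2 difference from the control mean (colour, red higher and blue lower) of the 20 tested YAP/TAZ signature genes and the 17 tested MRTF-SRF actin and contractile targets (rows) in each of the 6 samples (columns). TGFB2, ANKRD1, ACTC1 and TAGLN are reddest with DZNep, and NT5E, AXL and CNN1 are bluest, with shEZH2 in between.

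The upstream part of the Hippo pathway was read from its own list. Of 22 Hippo kinases, scaffolds and upstream regulators, 20 were tested. With DZNep 5 rose and none fell in limma, with a median of 0.06, and 5 of 20 is near the 22.3% of all tested genes called higher. The risen genes besides AMOTL2 were the atypical cadherin FAT1 (log2 1.01, adjusted p = 0.00148), the kinase TAOK2 (0.98, adjusted p = 0.00765), NF2 (merlin, 0.73, adjusted p = 0.0232) and WWC1 (KIBRA, 0.53, adjusted p = 0.0287). NF2 was 5 and 7 in control and 11 and 11 in both DZNep and shEZH2, and entered the test through these samples. With shEZH2 the calls were AMOTL2 and LATS2, and no gene fell, where 3.83% of all tested genes were called higher and 4.53% lower. None of the 18 tested genes of this list outside the 10 described above was called with shEZH2. The DZNep call of NF2 was lost without control replicate 1, DZNep replicate 1 or either shEZH2 replicate (highest adjusted p = 0.0824), and that of WWC1 without control replicate 2, DZNep replicate 1 or either shEZH2 replicate (highest adjusted p = 0.116). The number of increases with DZNep ranged from 1 to 9 over the alternatives.

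Of 9 TEAD factors and cofactors, 6 were tested. VGLL3, a TEAD cofactor, was 5 and 9 in control, 23 and 49 with DZNep, and 18 and 16 in shEZH2. VGLL3 rose with DZNep (log2 2.10, SE 0.31, adjusted p = 0.00155) and did not pass with shEZH2 (log2 1.17, 95% interval 0.45 to 1.89, adjusted p = 0.0561), having entered the test through the treated samples. VGLL4, which competes with YAP for TEAD, was 10 and 9 in control, 19 and 24 with DZNep, and 17 and 17 in shEZH2, and rose with DZNep (log2 1.02, adjusted p = 0.00455), having entered the test through its treated samples. The 6 genes had a median of 0.26 under DZNep and of 0.25 under shEZH2. No gene of this list was called with shEZH2 in limma. Beside this, 22.3% of all tested genes were called higher with DZNep and 3.83% with shEZH2.

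Of SRF and its cofactors, 7 of 8 genes were tested, with a median of -0.20 with DZNep and 0.07 with shEZH2. SRF was the 1 gene that rose, in both comparisons with control. Among all tested genes, the called shares were 22.3% higher and 20.4% lower with DZNep, and 3.83% higher and 4.53% lower with shEZH2. FHL2, a LIM-only cofactor of SRF, was 857 and 858 in control, 391 and 448 with DZNep, and 752 and 722 in shEZH2. FHL2 fell with DZNep (log2 -1.10, SE 0.15, adjusted p = 0.00112), whereas the change with shEZH2 was -0.27 (95% interval -0.62 to 0.08, adjusted p = 0.282). The treatments differed by 0.83 (adjusted p = 0.0187), a call lost without either shEZH2 replicate (highest adjusted p = 0.250). MKL2 (now MRTFB) was 13 and 15 in control, 5 and 11 with DZNep, and 12 and 9 in shEZH2, and fell with DZNep (log2 -0.89, SE 0.28, adjusted p = 0.0350). This call was lost under 7 of the 16 refits that tested the gene, among them those without either control replicate, DZNep replicate 1 or either shEZH2 replicate (highest adjusted p = 0.146).

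The immediate early targets of SRF and its TCF partners were mostly low, with 3 of 7 genes tested. FOS, a subunit of the AP-1 factor, was 18 and 19 in control, 3 and 3 with DZNep, and 8 and 9 in shEZH2. FOS was 5.08-fold lower with DZNep (log2 -2.35, SE 0.20, adjusted p = 0.000161) and 2.13-fold lower with shEZH2 (log2 -1.09, SE 0.20, adjusted p = 0.0205), and the latter call was lost without either shEZH2 replicate (highest adjusted p = 0.280). FOS entered the test through its control samples, where it is highest. IER2 moved the other way, with 60 and 61 in control, 173 and 146 with DZNep, and 100 and 102 in shEZH2. IER2 rose with DZNep (log2 1.31, adjusted p = 0.00171), and with shEZH2 the difference was 0.68 (95% interval 0.22 to 1.14, adjusted p = 0.0707). The third tested gene, MCL1, did not pass. The medians were 0.03 with DZNep and 0.05 with shEZH2.

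The lists were written with earlier results of these data known and overlap in AMOTL2, LATS2 and PTPN14. The plot of the pathway lists shows the change of every tested gene.

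**Figure D4:**
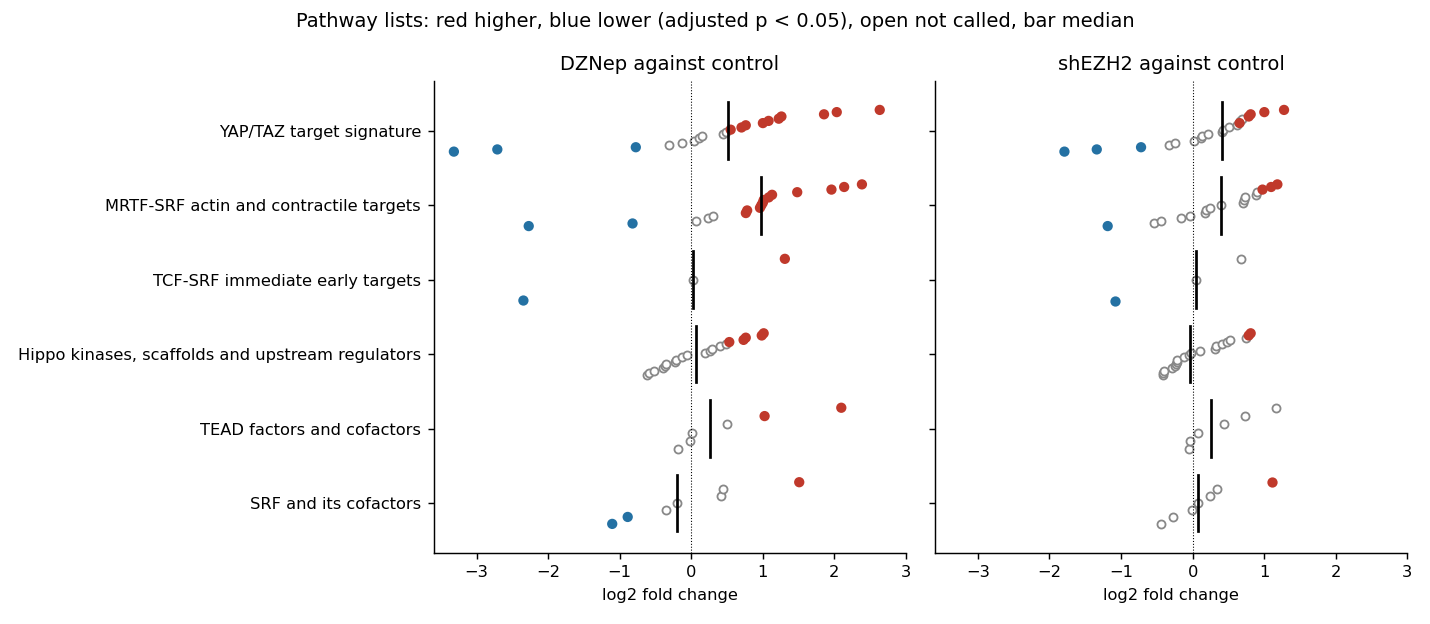
Log2 fold change (horizontal axis) of each tested gene in 6 pathway lists (rows), for DZNep against control on the left and shEZH2 against control on the right. Filled points passed an adjusted p of 0.05 (red higher, blue lower), open points did not, and a black bar marks the median, which is 0.98 for the MRTF-SRF actin and contractile targets with DZNep.

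Among the 3332 tested genes averaging 50 or more, those most like CYR61 over the 6 samples by Pearson correlation of log2 values were ASXL1 (0.994), MT-ND3 (0.985) and ANKRD33B (0.985). Among 3333 such genes, those most like TAGLN were LAMB3 (0.999), PEX26 (0.999) and RBM19 (0.998). These correlations rest on 3 groups of 2 samples and share the libraries, and they are given as a description.

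Markers of other cell types were read beside these changes, since TAGLN, CNN1 and ACTC1 are expressed in muscle. The summed level of the smooth muscle list (5 of 6 genes in the matrix) was 105 and 82 in control, 52 and 46 with DZNep, and 73 and 66 in shEZH2, most of it from SMTN, which fell with DZNep (log2 -1.63, adjusted p = 0.00261). The defining markers MYH11, LMOD1 and SYNPO2 were at or near 0 in every sample (0 to 4), and DES rose with DZNep (8 and 5 in control, 13 and 16 with DZNep, adjusted p = 0.0166). DES entered the test through its treated samples. The fibroblast list (3 of 7 genes in the matrix) summed to 25 and 28 in control, 69 and 53 with DZNep, and 53 and 46 in shEZH2. This difference was carried by PDGFRB, which was higher in both treatments (adjusted p = 0.000848 with DZNep and 0.0164 with shEZH2). COL1A1 did not pass and leaned the other way (log2 -0.50 with DZNep and -0.16 with shEZH2), and LUM stayed at 0 to 2. The endothelial and leukocyte lists (2 of 4 and 2 of 5 genes in the matrix) stayed at sums of 2 to 5. The summed epithelial list was 2427 to 3037 in control and 7372 to 8547 with DZNep, a difference carried by KRT8 and KRT18 (log2 1.77 and 1.66), while PAX8 fell (log2 -0.68, adjusted p = 0.0280) and KRT7 did not pass (log2 -0.08, adjusted p = 0.782). The part of these markers in the changes of TAGLN, CNN1 and the other genes was not tested.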

How the data were processed

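RNA-Seq of OVCAR8 was analysed in 6 samples, with groups and replicate numbers from the labels. Stranded libraries were made after removal of ribosomal RNA. Per the labels, fastp, STAR and RSEM were used for trimming, alignment to GRCh38 and quantification, with the versions of STAR and RSEM not given in the sources used here. The deposited matrix holds a score per gene and sample, scaled by the authors to a common total (999956 to 1000068) and rounded to whole numbers. It is called a count matrix, which the totals contradict, so the count test of the study's methods was not used. Sequencing depth is unknown, and precision is limited by rounding and by 2 replicates per group.

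Values were divided by unweighted TMM factors (trimming 30% of log ratios and 5% of means). The 9671 genes that reached 10 in at least 2 samples were compared by limma 3.58.1 (R 4.3.3; lmFit, eBayes with intensity trend) on log2(value + 1), with all 6 samples in 1 fit and Benjamini-Hochberg adjustment. The procedure was tested on simulated data with independent noise and the same spread in every group. That test does not cover the unequal spread of the groups or the shared deviations of control and DZNep samples. Gene positions came from GENCODE (GRCh38) and promoter sequences from RefSeq. Python 3.11.15 and matplotlib 3.10.9 served for the figures. No sample column was unmapped.

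The 10 genes and the 7 pathway lists were chosen with earlier results of these data known. The result of 1 list is not reported here. From each list, up to 4 further genes called with DZNep and up to 2 called with shEZH2 are named, those with the largest change, besides EZH2 and the 3 genes most like CYR61 and TAGLN. Other genes were named outside this rule, after their values were seen. MYL9, TPM4 and MCL1 were named for small counts, and NUAK2 and TGFB1I1 for how they passed the filter. The alternatives were other scaling, filters, pseudocounts (0.5 and 5) and variance models, fits of 2 groups, a replicate block, the thresholds of the study's methods, averaged shEZH2 samples and each sample left out.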

Additional observations from a re-analysis of the deposited data

How the results depend on the processing

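Of 537 values of the 10 genes under the alternatives, 478 kept their direction and side of the threshold, 32 lost a call, 18 gained a call and 9 changed sign. The 6 increases and the decrease with DZNep were kept in all 17 refits, except AMOTL2 without control replicate 2. The causes of the changes below were not tested, except that averaging or leaving out samples leaves fewer samples. With a single sample left in a group, that sample is assumed to vary like the other groups. Depth is unknown, and rounding limits CNN1, WWTR1, SRF and other low genes. With a filter of 20 in place of 10, WWTR1 was not tested.

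Without scaling factors, 5 of the 10 genes were called higher with shEZH2, 812 genes were higher over all, and 674 were lower between shEZH2 and DZNep. With only the 2 groups compared, 5 of the 10 genes were higher with shEZH2, and over all genes 777 were higher and 774 lower with shEZH2, and 729 higher and 705 lower between shEZH2 and DZNep. The thresholds of the study's methods gave 1017 higher and 1144 lower with DZNep, 1 of the 10 genes and 215 of all genes higher with shEZH2, and 204 lower between shEZH2 and DZNep. With the shEZH2 samples averaged to 1, limma called 0 of the 10 genes higher and 0 lower with shEZH2 (6 and 1 at an unadjusted p under 0.05), and 10 higher and 29 lower over all genes. Between shEZH2 and DZNep it then called 0 of the 10 genes higher and 1 lower (1 and 3 at an unadjusted p under 0.05), and 50 higher and 41 lower over all genes.

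The replicate numbers were checked for pairing by correlating, over genes, how same-numbered samples deviated from their group, which gave 0.79 for control with DZNep, -0.02 for control with shEZH2 and -0.04 for DZNep with shEZH2, so that the numbers were not taken as a pairing of all samples, although control and DZNep samples of the same number deviated together. With the replicate block, LATS2 passed the test with DZNep, also with only these 2 groups (adjusted p = 0.000408), as did WWTR1 with only these 2 groups (adjusted p = 0.0184). With the replicate block, 6 of the 10 genes were higher with shEZH2, 1391 genes were higher and 1384 lower over all, and 1348 higher and 1243 lower between shEZH2 and DZNep. With the replicate block and only the 2 groups compared, 3577 genes were higher and 3436 lower with DZNep, 5 of the 10 genes were higher with shEZH2, 964 genes were higher and 968 lower over all, and 778 were higher between shEZH2 and DZNep.

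Leaving out each sample in turn, genes higher with DZNep ranged from 1381 (without DZNep replicate 1) to 2282. With shEZH2, the increases among the 10 genes were all lost without control replicate 2 or either shEZH2 replicate. More of the 10 genes were called higher without either DZNep replicate. The decrease of CNN1 was lost without either shEZH2 replicate. Over all genes, 8 to 798 were higher and 27 to 749 lower with shEZH2. Between shEZH2 and DZNep, the increase of CNN1 was lost without DZNep replicate 1 or either shEZH2 replicate. Of the decreases among the 10 genes, only that of ANKRD1 was kept without either shEZH2 replicate. Over all genes, 40 to 666 were higher and 39 to 710 lower.

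Sign changes concerned small log2 differences. YAP1 with DZNep turned to -0.028 with median-ratio scaling and -0.0026 with the shEZH2 samples averaged, and ranged from -0.24 (without control replicate 1) to 0.26 when samples were left out in turn, with -0.18 without DZNep replicate 2. YAP1 with shEZH2 ranged from -0.30 to 0.20 (without control replicate 2). Between shEZH2 and DZNep, the ranges were -0.25 to 0.16 for YAP1, -0.056 to 0.19 for AMOTL2, -0.22 to 0.12 for WWTR1, -0.067 to 0.13 for NF2 and -0.014 to 0.28 for ZYX, each with the changed sign without DZNep replicate 2, and -0.17 to 0.039 for CYR61, with the changed sign without shEZH2 replicate 2, where NF2 was at -0.0049. With shEZH2, VGLL3, VGLL4, NF2, ACTB and IER2 passed the test without either DZNep replicate, VGLL3 also without control replicate 2, and VGLL4 and ACTB also without control replicate 1.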
